A study of Mus musculus with 2 samples.

Results

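The genes described here are 6 that mark plasmacytoid dendritic cells of the mouse: Siglech, Cox6a2, Spib, Tcf4, Bst2 and Ccr9. They are 6 of the 22020 gene symbols in the table. They were chosen after Siglech, Cox6a2 and Spib had been seen to be lower in the Utx/p53 DKO library, so the differences between the libraries given for the 6 genes are descriptions. The RNA came from LSK cells of 8-week-old C57BL/6 mice, a sorted fraction that lacks lineage markers, carries c-Kit and Sca-1, and holds haematopoietic stem cells and early multipotent progenitors. In the control group, p53 KO, the tumour suppressor gene Trp53 was knocked out. In the other group, Utx/p53 DKO (DKO below), the same gene was knocked out together with Utx (Kdm6a), which encodes a demethylase of histone H3 lysine 27, so both groups lacked p53 and neither was wild type, although the p53 KO library is titled WT-LSK. The labels do not give the Cre driver, the deleted exons, the sex, the tissue of the sort or the number of mice behind a library.

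Plasmacytoid dendritic cells are rare blood cells that detect viral nucleic acids in their endosomes and answer with large amounts of type I interferon. They arise in the bone marrow from progenitors that carry the receptor Flt3, and part of them shares a path with early lymphoid cells. The E protein TCF4 (E2-2) drives the fate and works with the ETS factor Spi-B, while the inhibitor ID2 blocks E proteins and favours conventional dendritic cells. Of the surface proteins, Siglec-H is an endocytic lectin that signals through the adaptor DAP12 (Tyrobp), BST2 (tetherin) holds budding virus particles on the membrane and is induced by interferon in many cell types, and CCR9 is the receptor that guides cells to the gut and thymus ligand CCL25. Cox6a2 encodes the heart and muscle form of a subunit of cytochrome c oxidase, and outside muscle it is known as a transcript of plasmacytoid dendritic cells.

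The sequences before the start sites of 4 of the 6 genes are shown because E proteins bind E-boxes, with the letters CANNTG, and interferon response factors bind repeats of GAAA. They come from RefSeq windows of the build GRCm38.p6, whereas the reads were mapped to mm9. The windows searched cover the 250 bases before a start site. Bases that lie inside an annotated transcript of the gene are not shown, except 30 of Siglech that hold an E-box. Capitals mark each CANNTG and, in Bst2, 2 overlapping matches to GAAANNGAAA.
Siglech, chr7:55767934-55768153, plus strand: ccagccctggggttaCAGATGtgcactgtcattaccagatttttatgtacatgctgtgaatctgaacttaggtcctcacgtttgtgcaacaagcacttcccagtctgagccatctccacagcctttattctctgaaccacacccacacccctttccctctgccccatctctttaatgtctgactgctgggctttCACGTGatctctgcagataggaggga
Siglech, 30 bases next to the start used, chr7:55768154-55768183, plus strand: agacttgggcCACCTGctgtccctagttcc
Spib, chr7:44532088-44532321, minus strand: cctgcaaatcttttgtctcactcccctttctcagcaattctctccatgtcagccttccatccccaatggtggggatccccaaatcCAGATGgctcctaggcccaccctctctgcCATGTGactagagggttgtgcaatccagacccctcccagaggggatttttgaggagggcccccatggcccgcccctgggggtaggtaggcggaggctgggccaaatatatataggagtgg
Bst2, chr8:71537473-71537722, minus strand: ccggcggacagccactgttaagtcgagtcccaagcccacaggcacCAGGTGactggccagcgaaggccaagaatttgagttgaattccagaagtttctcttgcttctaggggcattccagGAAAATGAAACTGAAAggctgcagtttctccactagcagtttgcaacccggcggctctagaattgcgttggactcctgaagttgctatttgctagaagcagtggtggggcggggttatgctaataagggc
Ccr9, chr9:123766961-123767210, plus strand: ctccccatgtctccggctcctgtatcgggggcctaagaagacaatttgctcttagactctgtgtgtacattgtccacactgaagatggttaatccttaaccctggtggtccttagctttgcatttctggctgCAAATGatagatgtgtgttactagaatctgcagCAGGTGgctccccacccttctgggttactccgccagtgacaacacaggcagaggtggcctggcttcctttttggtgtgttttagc

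Each of the 4 windows held at least 1 CANNTG, as did 66.2% of the 32851 windows of all genes in the RefSeq table. The E-box form CAGGTG, searched on both strands as CAGGTG or CACCTG and contained in CANNTG, began 20 bases before the start in Siglech, 205 in Bst2 and 85 in Ccr9. It was present in 17.2% of all windows, and its letters were not in the Spib window. GAAANNGAAA, searched on both strands, was found in 2.98% of all windows and, among the 4, in Bst2, where the matches began 130 and 124 bases before the start. These matches are descriptions of letters and do not show binding. Cox6a2 and Tcf4 are named without a sequence.

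A single library stood for each genotype, of 17088105 reads for the p53 KO and 19926294 for the DKO, so the spread between mice is unknown and no test between the genotypes could be made. Levels are RPKM, reads per kilobase of transcript, scaled by the total reads of the library, and intervals are exact 95% intervals for counting error alone. A gene was called lower or higher where log2(RPKM + 1) differed by at least 1, a 2-fold change on that scale, which understates the change of low genes. Genes were measured where their RPKM averaged 1 or more over both libraries. Of these 11356 genes, 13.5% were called lower and 6.6% higher in the DKO library, and the median difference was -0.24. That split depended on the scaling: 32.9% of the called genes were higher on RPKM, 74.9% with the authors' gfold constants, 44.0% with upper-quartile scaling, 48.2% after centring on genes that average 5 RPKM or more, 15.1% with equal summed RPKM and 47.2% with a pseudocount of 5. The knocked-out Kdm6a was at 5.32 RPKM in the p53 KO and 1.26 RPKM in the DKO library, and Trp53, whose transcript was present in both, at 19.4 and 12.9 RPKM. Values over whole transcripts do not show which exons were deleted. Of the genes behind the sort, Kit was at 64.2 and 16.0 RPKM and Ly6a (Sca-1) at 255 and 281 RPKM, and of 13 measured markers of stem and early progenitor cells 7 were called lower and 0 higher.

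All 6 genes passed the filter, and 5 of the 6 were called lower in the DKO library, beside 13.5% of all genes tested. The genes were chosen on this contrast, so nothing is read from that count. The size was graded: Siglech, Cox6a2 and Spib were lower by more than 10-fold in RPKM, Ccr9 and Tcf4 by less than 5-fold, and Bst2 was not called. In a bulk library, fewer cells of a type and less RNA per cell cannot be told apart.

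**Figure D1:**
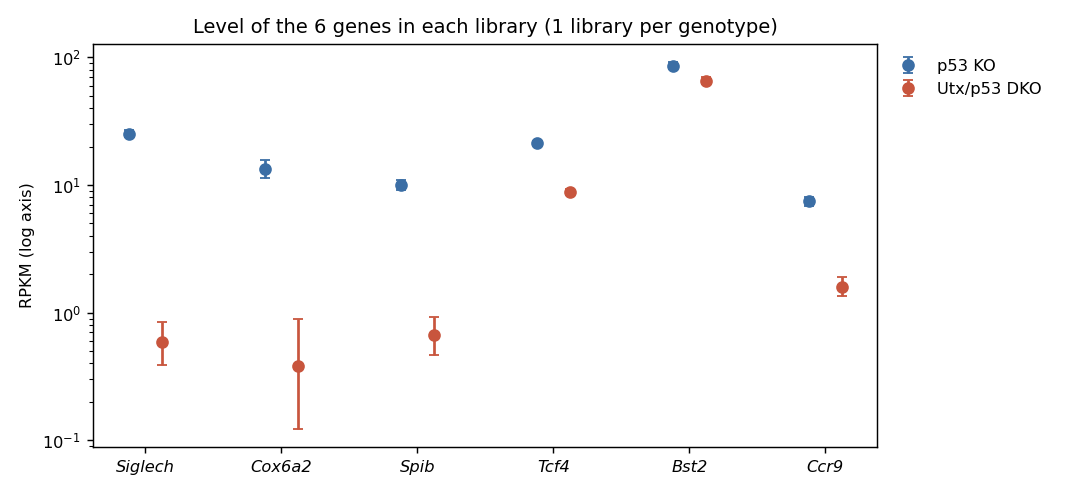
Level of each of the 6 genes in RPKM (log axis) in the p53 KO library (blue) and the Utx/p53 DKO library (red), 1 library each, with exact 95% intervals for counting error as bars. The intervals of the libraries do not overlap for any of the 6 genes, and the gap is widest for Siglech, at 25.2 against 0.586 RPKM, and narrowest for Bst2, at 86.3 against 65.7 RPKM.

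Siglech, the endocytic lectin, was at 25.2 RPKM (1034 reads) in the p53 KO library and at 0.586 RPKM (28 reads) in the DKO library. It was 43.1-fold lower, with a counting interval of 29.6 to 65.1. Among the 11356 genes tested, its log2(RPKM + 1) difference of -4.05 was the third lowest, and its level lay at percentile 75.4 of those genes in the p53 KO and at percentile 3.12 in the DKO library. Its adaptor gene Tyrobp, which myeloid and NK cells also use, was at 117 RPKM in the p53 KO library and 249.9 RPKM in the DKO library.

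Other members of the Siglec family, sialic acid-binding lectins of leukocytes, were at lower levels than Siglech in the p53 KO library. Of the 4 others with a mean of at least 1 RPKM, 3 were called lower and 0 higher, and 4 of the 9 family genes in the table lay under that mean. Of these 4 others, 3 passed through the p53 KO library alone, with under 1 RPKM in the DKO library, so the count is no support. With a filter at a mean of 5 RPKM Siglech was the only family gene measured. Siglecg, a B cell inhibitory receptor, was at 8.01 and 1.31 RPKM, Cd33 at 4.40 and 0.545 RPKM, and the gene listed as Siglec5 (Siglecf, a receptor of eosinophils) at 2.39 and 0.0821 RPKM. Siglece, the fourth, was at 1.52 and 0.570 RPKM with a log2 difference of -0.68.

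Ccr9, the chemokine receptor, was at 7.44 RPKM (550 reads) in the p53 KO and 1.60 RPKM (138 reads) in the DKO library. It was 4.65-fold lower, with a counting interval of 3.85 to 5.64. Its second listed transcript, which shares nearly all its reads, gave 7.34 and 1.58 RPKM. The log2 difference was -1.70 on RPKM and -0.92 with a pseudocount of 5, which ends the call. The transcript of its ligand Ccl25 was at 4.92 and 6.16 RPKM.

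Chemokine receptors as a list went both ways. Of 13 measured genes other than Ccr9, Ccl25 among them, 3 were called lower and 4 higher, beside 13.5% and 6.6% of all genes. Of these 13, 3 passed the filter through the p53 KO library alone, so the lower count is no support. With equal summed RPKM 4 of the 14, Ccr9 included, were lower and 1 higher, beside 25.1% and 4.47% of all genes. Ccr7, a lymph node homing receptor, was at 7.97 and 0.610 RPKM and Ccr6 at 2.35 and 0.206 RPKM. Cx3cr1, a receptor of monocytes, was at 4.99 and 14.4 RPKM.

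Bst2 was the most abundant of the 6 genes in both libraries, at 86.3 RPKM (1129 reads) in the p53 KO and 65.7 RPKM (1003 reads) in the DKO library. It was 1.31-fold lower, with a counting interval of 1.20 to 1.43, and its log2 difference of -0.39 lay close to the all-gene median of -0.24. The sign turned with the scaling, to a difference of 0.21 under the gfold constants of the authors.

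Of all genes tested 13.5% were called lower and 6.6% higher, with a median of -0.24. Among the other interferon-stimulated genes, which Bst2 belongs to, 11 of 30 measured were called lower and 1 higher, with a median of -0.72. Those with the largest differences were Ifi44 (22.5 and 5.07 RPKM), Rtp4 (66.0 and 17.1 RPKM), Oasl2 (28.7 and 7.41 RPKM) and Xaf1 (21.1 and 6.45 RPKM). With the authors' gfold constants 5 of the list's 31 measured genes, Bst2 included, were lower and 2 higher. Those constants called 5.41% of all genes lower and 16.2% higher. The type I interferon genes themselves were nearly silent in both libraries. All 17 listed averaged under 1 RPKM, 7 had no read in either library, and 14 had none in the DKO library. Ifna5 had the highest level, at 1.54 RPKM (15 reads) and 0.352 RPKM (4 reads).

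**Figure D2:**
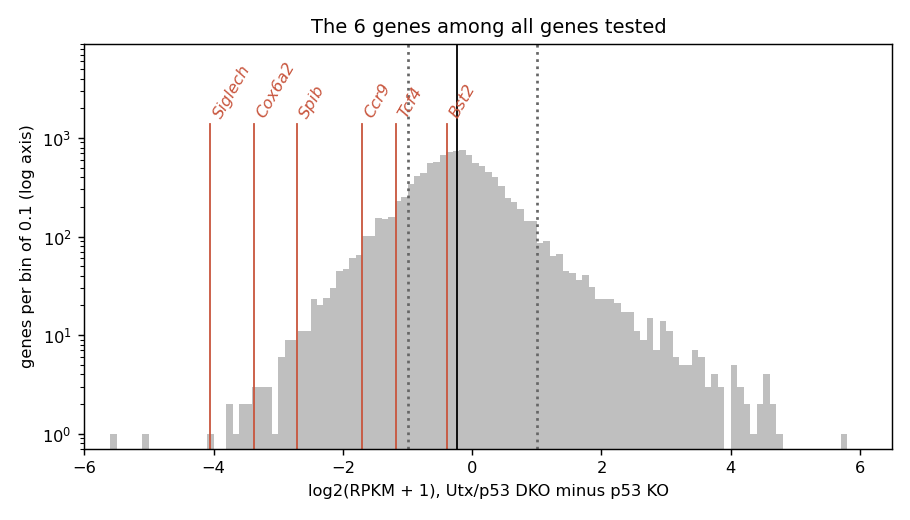
Number of genes (log axis) by difference in log2(RPKM + 1), Utx/p53 DKO minus p53 KO, in bins of 0.1 over the 11356 genes tested; red lines mark the 6 genes, the black line the all-gene median of -0.24 and dotted lines the 2-fold limits. Siglech, Cox6a2 and Spib lie in the far lower tail, Ccr9 and Tcf4 beyond the lower limit and Bst2 near the median.

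Of the transcription factors, Tcf4, the E protein that sets the plasmacytoid fate, was at 21.3 RPKM (2593 reads) in the p53 KO and 8.79 RPKM (1250 reads) in the DKO library. It was 2.42-fold lower, with a counting interval of 2.26 to 2.59, a narrow interval because the transcript is long and well covered. Its second transcript in the table gave 20.6 and 8.60 RPKM. The call depended on the scaling: the log2 difference was -1.19 on RPKM, -0.63 with the authors' gfold constants and -0.93 with a pseudocount of 5. Tcf4 is also transcribed in other progenitors, and in the DKO library its level still lay at percentile 52.9 of the genes tested.

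Spib, the ETS factor that acts with TCF4, was at 9.94 RPKM (473 reads) in the p53 KO and 0.666 RPKM (37 reads) in the DKO library. It was 14.9-fold lower, with a counting interval of 10.7 to 21.4. Its relatives of the same ETS subfamily were not called: PU.1, listed as Sfpi1, was at 5.44 and 5.50 RPKM, and Spic, a factor of iron-recycling macrophages, at 2.91 and 1.82 RPKM. B cells also use Spib. Of 10 measured markers of B cells 8 were called lower and 1 higher, beside 13.5% and 6.6% of all genes tested. Of these 10, 2 passed the filter through the p53 KO library alone. The summed level of the 15 listed went the other way, at 523 RPKM in the p53 KO and 640 RPKM in the DKO library. That rise came from Igll1, at 166 and 563 RPKM. The part of B-lineage RNA in the Spib difference was not tested.

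The 2 other E proteins were not called lower. Tcf3, which encodes the E2A proteins, was at 6.32 and 3.43 RPKM and Tcf12 (HEB) at 9.25 and 7.22 RPKM. Their Id antagonists went both ways, with 1 called lower and 2 higher of the 3 measured, beside 13.5% and 6.6% of all genes tested. Id1, 1 of the 2 higher, passed the filter through the DKO library alone, with 13 reads in the p53 KO library. Id2, the inhibitor that opposes TCF4, was at 20.2 RPKM (440 reads) and 54.1 RPKM (1372 reads), and Id1 at 0.835 and 5.51 RPKM. Id3 was at 17.9 RPKM (291 reads) and 2.11 RPKM (40 reads). In the p53 KO library the counting intervals of Id2 (18.4 to 22.2 RPKM) and Tcf4 (20.5 to 22.1 RPKM) overlapped, and in the DKO library Id2 was above Tcf4.

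Other factors of the plasmacytoid programme also went both ways. Of 12 measured beside Tcf4 and Spib, 3 were called lower, 3 higher and 6 neither, with a median of -0.75. All genes tested gave 13.5% lower and 6.6% higher, with a median of -0.24. Irf7, the factor that amplifies interferon transcription, was at 29.9 and 10.7 RPKM, and Cbfa2t2, a corepressor of the ETO family, at 17.7 and 5.51 RPKM. Bcl11a, a zinc finger factor these cells need, was at 15.0 and 5.87 RPKM. Irf8, needed by dendritic cells and monocytes alike, was higher at 49.6 and 123 RPKM, as were Nfil3 at 3.67 and 12 RPKM and Zeb2 at 10 and 21.8 RPKM. With the authors' gfold constants 1 factor of the whole list of 14 measured, Spib, was lower and 3 were higher. The shares of all genes there were 5.41% and 16.2%. With equal summed RPKM 9 were lower and 1 higher, beside 25.1% and 4.47% of all genes.

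Cox6a2 was at 13.3 RPKM in the p53 KO and 0.381 RPKM in the DKO library. The transcript is short, and these levels rest on 150 and 5 reads, so the 35-fold lower value has the widest counting interval of the 6, 14.7 to 109. The other subunits of cytochrome c oxidase were not called lower with it. Of 14 measured, 0 were called lower and 7 higher, beside 13.5% and 6.6% of all genes tested. Of these 14, 1 did fall under 1 RPKM in the DKO library. Cox6a1, the form of the same subunit that most tissues use, was at 48.0 RPKM (437 reads) and 103 RPKM (1089 reads), Cox4i1 at 335 and 775 RPKM, and Cox6c at 69.8 and 166 RPKM. With the authors' gfold constants 11 of 15 measured subunits, Cox6a2 included, were higher and 1 was lower. Those constants called 16.2% of all genes higher and 5.41% lower. With equal summed RPKM only 1 subunit was higher, and Cox6a2 remained the only 1 lower, beside 4.47% and 25.1% of all genes. With no filter 2 of the 17 listed, Cox6a2 among them, were lower.

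Cox6a2 is also a muscle gene, so markers of striated muscle were read in the same libraries. Of 20, 15 averaged under 1 RPKM. Of the other 5, 2 were called lower and 1 higher, beside 13.5% and 6.6% of all genes tested. Of these 5, 3 had under 1 RPKM in the DKO library and 1 in the p53 KO library, so the count is no support. The summed level of the 20 was 16.6 RPKM in the p53 KO and 12.4 RPKM in the DKO library. The creatine kinase gene Ckm was at 0.248 RPKM in the p53 KO library, where Cox6a2 was at 13.3, and at 7.27 RPKM in the DKO library. Tnni2 was at 4.12 and 1.05 RPKM and Mylpf at 3.02 and 0.731 RPKM. The muscle subunit gene Cox8b had no read in either library, and Cox7a1 had 10 and 6 reads.

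The order of the 6 levels changed between the libraries. In the p53 KO library it ran Bst2, Siglech, Tcf4, Cox6a2, Spib and Ccr9, and no 2 neighbours had overlapping counting intervals. In the DKO library it ran Bst2, Tcf4, Ccr9, Spib, Siglech and Cox6a2, and the intervals of Spib (0.469 to 0.919 RPKM), Siglech (0.390 to 0.847 RPKM) and Cox6a2 (0.124 to 0.889 RPKM) overlapped, so the order of these 3 was not detectable at this depth.

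Of a list of 34 markers of plasmacytoid dendritic cells 28 were measured, 4 of them being Siglech, Cox6a2, Bst2 and Ccr9. Among the 24 others, 14 were called lower, 2 higher and 8 neither, with a median of -1.38. Over all genes tested 13.5% were called lower and 6.6% higher, with a median of -0.24. With the authors' gfold constants 12 of 25 measured in the whole list were lower and 5 higher, beside 5.41% and 16.2% of all genes. Of those 24 genes, 5 passed the filter through the p53 KO library alone, with under 1 RPKM in the DKO library, so they had to differ and the count and median are no support. With a filter at a mean of 5 RPKM 11 of 21 in the whole list were lower and 2 higher, with a median of -1.09. That filter gave 11.0% lower and 6.98% higher over all genes, with a median of -0.18. With a pseudocount of 5 the count was 10 lower and 2 higher of 28, with a median of -0.50. Over all genes that pseudocount gave 4.19% lower and 3.75% higher, with a median of -0.15. The list shares genes with lymphoid and myeloid cells. Dntt (234 and 4.05 RPKM), Blnk (30.8 and 3.95 RPKM) and Ly6d (154 and 37.8 RPKM) are also used by lymphoid progenitors or B cells. Ly6c2 (919.5 and 15136 RPKM) and Plac8 (349 and 1519 RPKM), the 2 higher members, are also used by myeloid cells, and the reads of Ly6c2 may be split with its close copy Ly6c1.

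Other markers of the list were also lower in the DKO library, some of them on few reads. Of these, Pacsin1, Cd300c and Klk1 passed the filter through the p53 KO library alone, so their calls are no support. Paqr5, a membrane progestin receptor gene, was at 11.4 RPKM (683 reads) and 1.08 RPKM (75 reads). Pacsin1, an endocytic adaptor of plasmacytoid cells, had 60 and 3 reads (23.3-fold lower, interval 7.61 to 116), and Cd300c had 27 and 1 (31.5-fold lower, interval 5.19 to 1289). Klk1, a kallikrein protease, had 33 reads against 0 in the DKO library, which is at least 12.8-fold lower when 3 reads are taken as the floor. Rnase6 (52.3 and 9.37 RPKM), P2ry14 (35.3 and 6.42 RPKM) and Atp1b1 (10.1 and 2.38 RPKM) were lower as well. Ptprs, a receptor phosphatase of plasmacytoid cells, was not called, at 4.66 and 3.28 RPKM, nor were Lair1 (16.6 and 31.2 RPKM), Nrp1 (6.10 and 12 RPKM) and Pld4, an endosomal nuclease (35.2 and 42.9 RPKM).

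The machinery of endosomal nucleic acid sensing, the signature function of these cells, differed little as a list. Of 18 measured genes, 3 were called lower, 1 higher and 14 neither, beside 13.5% lower and 6.6% higher of all genes tested. The median was -0.06 beside -0.24 for all genes. Tlr7, a receptor for single-stranded RNA, was at 2.66 and 3.55 RPKM, and Tlr9, a receptor for unmethylated DNA, at 0.270 RPKM (16 reads) and 0.260 RPKM (18 reads). Lower were Irf7, the lysosomal protease Lgmn (10.5 and 4.18 RPKM) and Irf5 (13.4 and 6.17 RPKM). Tyrobp was the 1 higher. With the authors' gfold constants 0 were lower and 3 higher, and the median was 0.50. Over all genes those constants gave 5.41% lower and 16.2% higher, with a median of 0.29.

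Receptors of the progenitors of dendritic cells moved apart. Flt3, the receptor whose ligand drives both dendritic lineages, was at 24.5 RPKM (1530 reads) and 1.83 RPKM (133 reads), 13.4-fold lower with a counting interval of 11.2 to 16.1. Il7r, a lymphoid cytokine receptor, was at 20.8 and 4.35 RPKM. Csf2rb, the shared chain of the receptors of GM-CSF, IL-3 and IL-5, was at 24.7 and 107 RPKM, and the macrophage receptor gene Csf1r at 7.61 and 34.3 RPKM. Of the 11 in the list, 4 were called lower and 4 higher, beside 13.5% and 6.6% of all genes tested.

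**Figure D3:**
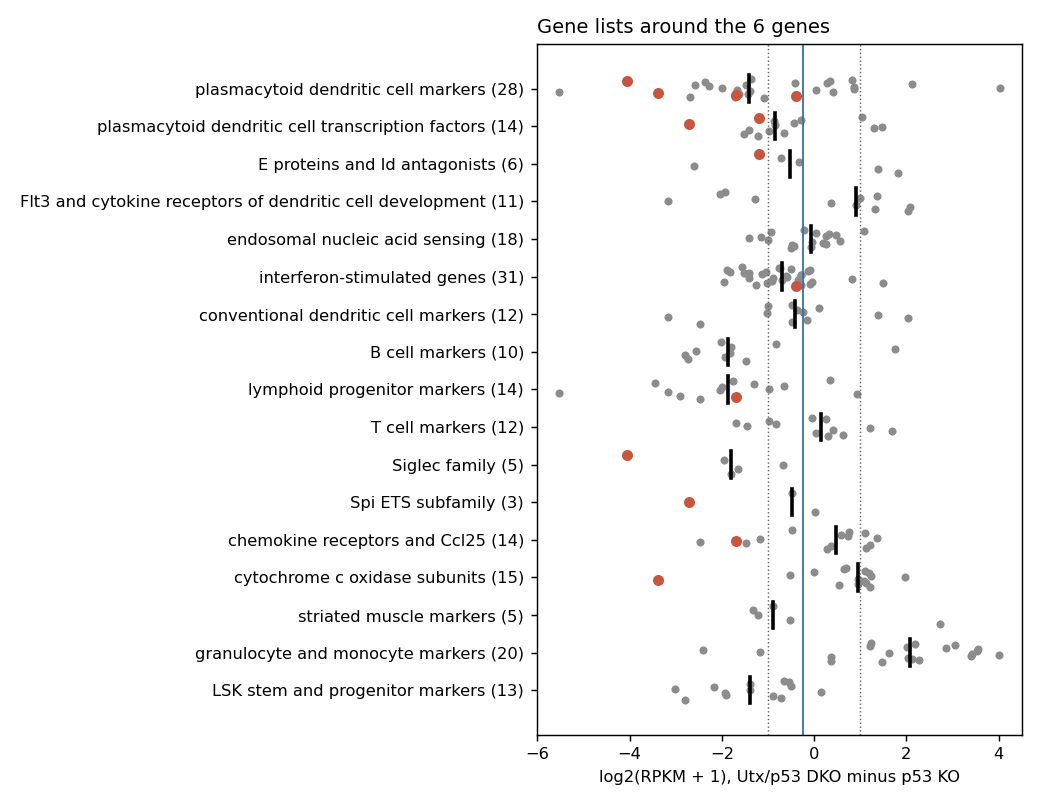
Difference in log2(RPKM + 1), Utx/p53 DKO minus p53 KO, of each measured gene in 17 lists (number of genes in parentheses); red points are the 6 genes described, black bars the list medians, the blue line the all-gene median and dotted lines the 2-fold limits. Cox6a2 lies apart from the other cytochrome c oxidase subunits and Spib from its 2 relatives, while the lymphoid progenitor and B cell lists both have a median of -1.87.

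Markers of other cell types differed between the libraries to unequal degrees. Over all genes tested, 13.5% were called lower and 6.6% higher. Of 14 lymphoid progenitor genes, Ccr9 included, 10 were called lower and 0 higher, and their summed level was 890 RPKM in the p53 KO and 469 RPKM in the DKO library. Of 20 granulocyte and monocyte genes, 16 were called higher and 2 lower, with sums of 5541 and 56859.9 RPKM. Conventional dendritic cell markers went both ways, with 4 lower and 2 higher of 12 measured and sums of 96.6 and 91.1 RPKM. Their defining factor gene Zbtb46 was at 0.727 and 0.0780 RPKM, and Batf3 was listed at 0 in both libraries. T cell markers, of which 2 were lower and 2 higher of 12, had sums of 106 and 96.0 RPKM. Of the measured genes other than the 6, 3 of the lymphoid progenitor, 2 of the B cell and 3 of the chemokine receptor list also passed the filter through the p53 KO library alone. So did 2 of the conventional dendritic cell and 2 of the T cell list. In the conventional dendritic cell list 1 gene passed through the DKO library alone. The counts of these lists are therefore no support. The part of these cell types in the differences of the 6 genes was not tested.

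Siglech, Cox6a2 and Spib lie on chromosome 7, Bst2 on 8, Ccr9 on 9 and Tcf4 on 18. Of 841 tested genes of chromosome 7, 17.7% were called lower, against 13.5% of all genes tested. Chromosome 8 had the lowest share, 7.25% of 593, and chromosome 2 the highest, 26.5% of 846.

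The genes most like each of the 6 were taken as those with the smallest Euclidean distance in log2(RPKM + 1) over the 2 libraries. Only measured genes were compared, and predicted, clone and small RNA names were left out. This is a likeness that 2 values can show only coarsely. Nearest to Siglech was Mn1 (23.6 and 0.786 RPKM, distance 0.20), nearest to Cox6a2 was Cplx2 (12.9 and 0.469 RPKM, distance 0.10), and nearest to Spib was Rps4y2 (9.08 and 0.693 RPKM, distance 0.12). Ccr9 had Cd96, a receptor of T and NK cells, at a distance of 0.04. Nearest to Tcf4 was Trpm7 at 0.03, and nearest to Bst2 was Btg1 at 0.01.

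The authors' deposited table gives each gene a log2 fold change that uses the gfold constants, and the GFOLD value, a cautious version of it. In the authors' deposited table the GFOLD value was -4.20 for Siglech, -2.87 for Cox6a2, -2.73 for Spib, -1.30 for Ccr9, -0.56 for Tcf4 and 0.06 for Bst2. The order of Siglech, Cox6a2, Spib, Ccr9, Tcf4 and Bst2 was that of the RPKM ratios.

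**Figure D4:**
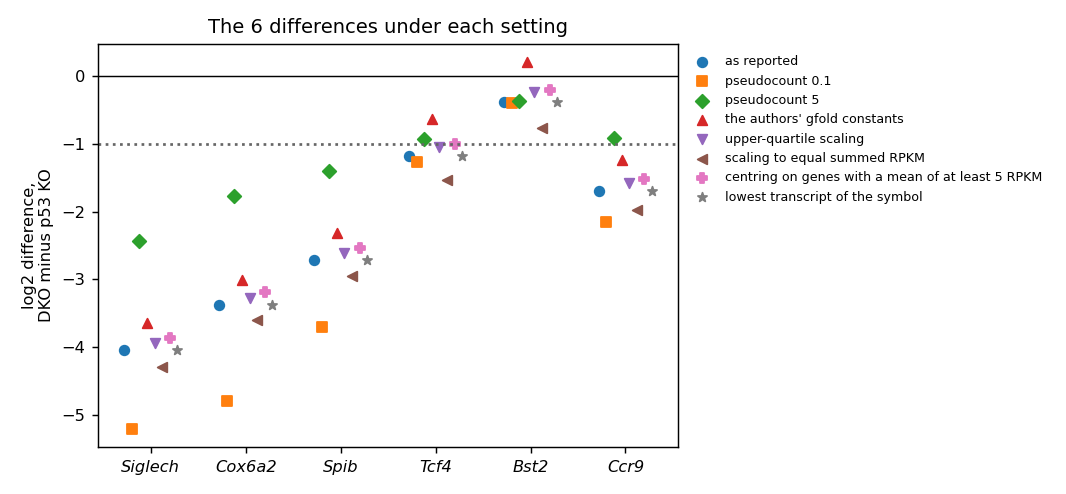
Difference in log2 level, Utx/p53 DKO minus p53 KO, of the 6 genes as reported and under 7 other settings; the dotted line is the 2-fold limit and the solid line no difference. Siglech, Cox6a2 and Spib lie below the limit under each of these settings, Ccr9 and Tcf4 cross it under some, and Bst2 lies above 0 with the authors' gfold constants.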

How the data were processed

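RNA of 2 libraries, 1 per genotype, was sequenced after oligo-dT and SMART amplification, per the labels' protocols. The protocol names no molecular identifiers, so reads are not independent molecules. TopHat2 2.1.0, bcl2fastq 1.8.4 and mm9 appear in the submitters' processing notes, and the file header names gfold 1.1.4. The authors deposited RPKM values of 28344 transcripts, a log2 fold change and a GFOLD value on the log2 scale, and an E-FDR (a q-value), which was 1 for every transcript. Columns were matched to libraries by the order in the file header. The treatment of strand and of multiply mapped reads in the counting was not given in the sources used here.

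Each symbol was read from its transcript of highest mean RPKM, with a pseudocount of 1 and a mean of at least 1 RPKM. No test was made. The gfold constants (1.30144 and 1) and RPKM differ by 0.602 on the log2 scale. Whole reads were recovered as the transcript length, up to 100000 bases, at which both RPKM values are whole within the printed digits and match the deposited log2 fold change. This gave exactly 1 solution for 95.2% of 269 genes of the lists. On simulated data it did so for 273 of 300 transcripts, all 273 correct. Ratio intervals are Clopper-Pearson and level intervals exact Poisson, both for counting error alone. List symbols not in the table were matched by RefSeq accession (GRCm38.p6).

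The members and the 18 gene lists were chosen with earlier results of these data known. Genes named were the 6 members with their transcripts, Kdm6a and Trp53, up to 4 further measured genes per list with the largest absolute difference (all in lists of up to 7 genes), close relatives and partners of the members, and the 3 nearest genes by distance, of which the first is given. Further genes, chosen after their values were seen, were the other named markers of plasmacytoid dendritic cells, Bcl11a, Zeb2, Tlr7, Tlr9, Ifna5, Batf3, Cox7a1, Cox8b, Igll1 and Ly6a. Alternatives were other pseudocounts, scalings, filters, fold rules and transcripts. Python 3.11.15, numpy 2.4.6, pandas 2.3.3, scipy 1.17.1 and matplotlib 3.10.9 were used.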

Additional observations from a re-analysis of the deposited data

How the results depend on the processing

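The number of the 6 genes called lower was 5 as reported and 3 with a pseudocount of 5, where Tcf4 and Ccr9 no longer passed. It was 4 with the authors' gfold constants and with the 3-fold rule (both without Tcf4), and with a filter at a mean of 5 RPKM (without Ccr9), and 5 under the 7 other alternatives. Log2 differences ranged from -5.21 to -2.44 for Siglech, -4.80 to -1.77 for Cox6a2, -3.71 to -1.40 for Spib, -2.15 to -0.92 for Ccr9, -1.53 to -0.63 for Tcf4 and -0.76 to 0.21 for Bst2. None of the 5 genes called lower changed sign under the settings run. Over all genes, 1528 were lower and 750 higher as reported. The counts were 476 and 426 with a pseudocount of 5, 611 and 1828 with the gfold constants, 2867 and 511 with equal summed RPKM, 493 and 369 with the 3-fold rule and 3363 and 1481 with the 1.5-fold rule. The scalings moved the all-gene median by 0.53 (gfold constants), 0.14 (upper quartile), -0.33 (equal sums) and 0.18 (centring). Of 198 counts of lower genes in the lists under alternatives, 153 stayed within 1.5 times the reported count, with counts of 0 and 1 taken as alike. Those 153 include the type I interferon list, which had 0 measured genes as reported and so could hardly move. Of 152 list medians under alternatives 107 moved by over 0.1 on the log2 scale, and of 42 differences of the 6 genes 18 moved by more than their counting error. No paired analysis was possible because there was 1 library per genotype, and no library could be left out. Depth limits Cox6a2 most, with 5 reads in the DKO library. A pattern in 2 libraries cannot be told apart from a difference between the mice or sorts behind them.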

Other observations

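The partners of the surrogate light chain of the pre-B cell receptor moved apart. Vpreb1 was at 62.6 RPKM (822 reads) in the p53 KO and 14.8 RPKM (226 reads) in the DKO library, while Igll1 was at 166 RPKM (2464 reads) and 563 RPKM (9759 reads). Igll1 was the 1 B cell marker called higher among 10 measured. Clec4a4, a lectin of conventional dendritic cells, was also higher, with 9 reads against 111 in the DKO library (interval of the ratio 5.37 to 23.7). It passed the filter through the DKO library alone, so its call is no support.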
